A study of Mus musculus with 84 samples.

Results

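Leptin and the components of its signalling were followed as 8 genes, taken by name from a count table of 49671 genes: the hormone gene Lep, its receptor gene Lepr, the receptor-bound kinase gene Jak2, the adaptor gene Sh2b1, the transcription factor gene Stat3, and the 3 inhibitors Socs3, Ptpn1 and Ptpn2. All 8 had exactly 1 row in the table, and each was read in all 84 libraries. The blood leptin value of each mouse was set beside them. Messenger RNA had been sequenced from 7 tissues of each of 12 mice, so that every library is 1 tissue of 1 mouse: epididymal fat, aorta, skeletal muscle, heart, liver, hypothalamus and hippocampus. There were 3 wild-type (WT) mice on normal diet (ND), 3 WT mice on high-fat diet (HFD), 3 ob/ob mice on ND and 3 ob/ob mice on HFD. The labels give 20 weeks for all of them, and strain and sex are not given in the sources used here. ob/ob mice carry a premature stop codon in Lep, so they transcribe the gene but make no active hormone. Gene counts do not show that mutation, and Lep therefore cannot serve as a check of the genotype labels. Library totals ran from 10499528 to 17040790 counts assigned to genes.

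Leptin is secreted by fat cells in proportion to fat stores and acts through the long form of its receptor, mainly on neurons of the hypothalamus, to restrain feeding. The receptor has no kinase of its own: JAK2 bound to it phosphorylates receptor tyrosines, SH2B1 enhances JAK2 activity, and STAT3 docks, is phosphorylated and moves to the nucleus. SOCS3, whose gene STAT3 induces, blocks the receptor complex, and the phosphatases PTP1B (from Ptpn1) and TCPTP (from Ptpn2) remove phosphates from JAK2 and STAT3. JAK2, STAT3 and all 3 inhibitors also serve many other cytokine receptors. Counts measure transcripts only, not phosphorylation, and reads of the short and long receptor forms fall into the same Lepr row.

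On the mouse build GRCm38 the annotation places Lep at chr6:29060220-29073877 (plus strand), Lepr at chr4:101717404-101815352 (plus), Jak2 at chr19:29251828-29313080 (plus) and Sh2b1 at chr7:126466994-126475424 (minus). Stat3 lies at chr11:100885098-100939540 (minus), Socs3 at chr11:117966079-117970047 (minus) and Ptpn1 at chr2:167932057-167979385 (plus), and no position is given here for Ptpn2. Each count covers the exons of the whole gene. Of the 9527 exon bases of Stat3, 72 (0.756%) overlap Stat5a on the opposite strand, and reads were counted without regard to strand.

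The proximal promoters of the hormone gene and of the STAT3-induced inhibitor gene are shown because searched letter patterns matched in them. These were C/EBP and TATA patterns next to the RefSeq start of Lep, and a STAT pattern before the RefSeq start of Socs3. Both are printed 5′ to 3′ on the gene's own strand from RefSeq, build GRCm38.p6. Lep covers chr6:29060101-29060220, bases 120 to 1 before the RefSeq start, with the C/EBP and TATA letters in capitals. Socs3 covers chr11:117969502-117969530, bases 164 to 136 before its RefSeq start, with the STAT letters in capitals. That stretch lies inside the gene span that the annotation gives for Socs3, because the annotated start differs from the RefSeq start.
Lep: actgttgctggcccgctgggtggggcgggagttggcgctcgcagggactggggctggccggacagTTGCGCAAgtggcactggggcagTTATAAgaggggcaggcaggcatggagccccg
Socs3: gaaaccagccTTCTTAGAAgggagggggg

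In Lep the letters TTGCGCAA lie 55 to 48 bases before the start and match the searched pattern TTGCNNAA on both strands. The TATA letters TATAA lie 31 to 27 bases before the start, overlapped by the same pattern on the other strand at 32 to 28. In Socs3 the letters TTCTTAGAA lie 154 to 146 bases before the start and match TTCNNNGAA. Both strands of 32851 RefSeq windows, each from 250 bases before to 50 bases after a start, were searched for these patterns. TTCNNNGAA was in 8.3% of windows, TTGCNNAA in 10.8% and TATAA in 24.9%. Of the 9 windows of 7 of the 8 genes, 1 held TTCNNNGAA (Socs3), 3 held TTGCNNAA (Lep, Lepr and Ptpn1) and 2 held TATAA (Lep and Sh2b1). A match describes the letters in the window and does not show that a factor binds there.

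Marker genes touch several of the tissues before any result. The aorta libraries held brown fat markers in every group: the summed level of 6 brown adipocyte genes was 12230 to 16163 normalised counts (CPM, counts relative to the scaled library total) in WT and 5864 to 9463 CPM in ob/ob libraries, with Ucp1, the uncoupling protein of brown fat, at 7523 to 11700 CPM and 3589 to 6772 CPM. In epididymal fat 10 macrophage markers summed on average to 2069 CPM in WT ND, 21100 in WT HFD, 11617 in ob/ob ND and 14100 in ob/ob HFD. The adipocyte marker sums there averaged 58230, 25366, 37398 and 36002 CPM in the same order. The skeletal muscle libraries ranged widely in muscle and fat content, with ob/ob HFD 1 and ob/ob HFD 2 at the ends of the muscle range in ob/ob. The hippocampus libraries differed in markers of the choroid plexus. In a bulk tissue, more cells of a type and more RNA per cell cannot be told apart.

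Each tissue was tested on its own with edgeR's quasi-likelihood test, with Benjamini-Hochberg adjustment over all genes tested and a threshold of 0.05, and a gene that passed is said to have risen or fallen. CPM are scaled by TMM within a tissue unless stated. Lep was too low to test in heart, hypothalamus and hippocampus, which leaves 53 of 56 combinations of gene and tissue. The tests in a tissue use the same 4 groups of 3 mice, so the contrasts share groups and are given side by side.

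On ND, 11 of the 53 combinations differed between ob/ob and WT, 8 higher and 3 lower in ob/ob. In epididymal fat 4 of the 8 genes passed, against 48.2% of all genes tested, so their share is near the background. In skeletal muscle 4 of 8 passed, against 45%, in aorta 1 of 8 against 31.7% and in liver 1 of 8 against 36.4%. Heart had 0 of 7 against 12.7%, hypothalamus 0 of 7 against 5.3% and hippocampus 1 of 7 against 3.48%. At an unadjusted p under 0.05 the heart had 1 gene and the hypothalamus 0, and DESeq2 called 0 in both. The median log2 difference of the 8 genes was 0.19 in epididymal fat, against -0.01 over all genes tested there, and 0.11 in skeletal muscle, against 0.00. Without the libraries of ob/ob ND 1 the count of 11 was 7. The number of all genes passing fell too without that library, from 7558 to 5990 in epididymal fat and from 6950 to 4080 in skeletal muscle.

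On HFD, 6 combinations differed between the genotypes, all of them higher in ob/ob. Heart had 3 of 7, against 17.2% of all genes tested, aorta 2 of 8 against 16.2% and liver 1 of 8 against 18.5%. Epididymal fat had 0 of 8 against 17.6%, skeletal muscle 0 of 8 against 0.0194%, hypothalamus 0 of 7 against 2.13% and hippocampus 0 of 7 against 1.56%. At an unadjusted p under 0.05 these 4 tissues had 2, 2, 1 and 1 genes, and DESeq2 called 1, 1, 0 and 1. The count of 6 depended on single HFD libraries: it was 1 without WT HFD 1 or ob/ob HFD 2, 2 without WT HFD 2 or ob/ob HFD 3, and 3 without WT HFD 3, with the same numbered mouse left out of every tissue. The number of all genes passing moved too with 1 library left out. It ran from 1063 to 3078 in aorta (2389 on all libraries), from 1348 to 2410 in heart (2349) and from 1637 to 2358 in liver (2445).

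The diet changed 4 combinations in WT mice, 3 higher and 1 lower on HFD. Epididymal fat had 3 of 8, against 58.9% of all genes tested, and aorta 1 of 8 against 4.21%. Skeletal muscle had 0 of 8 against 0%, heart 0 of 7 against 0.256%, liver 0 of 8 against 21.8%, hypothalamus 0 of 7 against 0% and hippocampus 0 of 7 against 0%. At an unadjusted p under 0.05 these 5 tissues had 3, 1, 2, 0 and 0 genes, and DESeq2 called 2 in skeletal muscle and 0 in each of the others. Without the libraries of WT HFD 3 the count of 4 was 7. The number of all genes passing in epididymal fat rose too without that library, from 9227 to 9668.

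In ob/ob mice the diet changed 0 of the 53 combinations by edgeR, with 2 at an unadjusted p under 0.05, both in liver, and 0 by DESeq2. Few genes of any kind passed there: 0% in epididymal fat, 0% in aorta, 0% in skeletal muscle, 0.0219% in heart, 0.913% in liver, 0% in hypothalamus and 0% in hippocampus. The diet effect differed between the genotypes for 3 combinations, tested as an interaction. Epididymal fat had 2 of 8, against 40.1%, and aorta 1 of 8 against 0.427%. The remaining tissues had 0: skeletal muscle against 0%, heart against 0%, liver against 6.17%, hypothalamus against 0% and hippocampus against 0%. At an unadjusted p under 0.05 those 5 tissues had 1, 1, 2, 0 and 2 genes, and DESeq2 called 1 in skeletal muscle and 0 in the others.

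**Figure D1:**
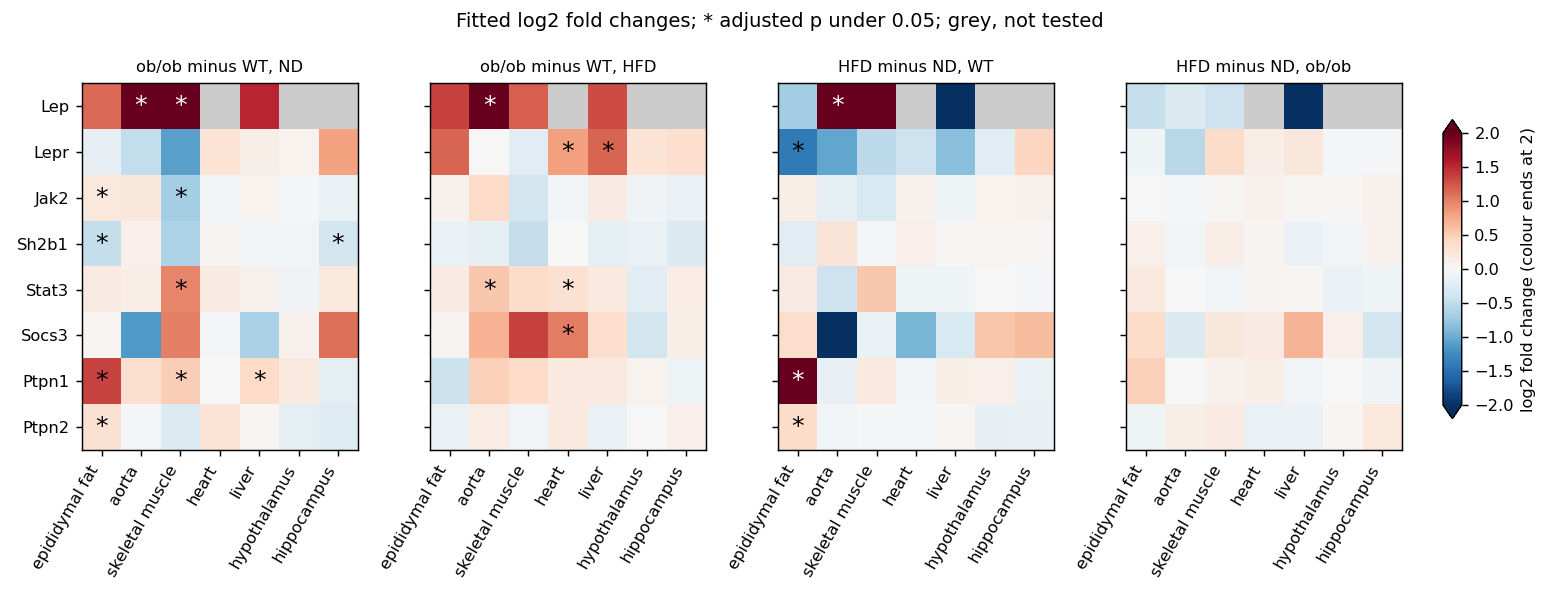
Fitted log2 fold changes of the 8 genes (rows) in the 7 tissues (columns) as colours, red for higher and blue for lower in the first-named group of each panel title, with the colour scale ending at 2 in either direction. Stars mark an edgeR adjusted p under 0.05, grey cells were not tested, and the panel for diet in ob/ob holds 0 stars.

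Lep was abundant in epididymal fat, aorta and skeletal muscle and near 0 elsewhere. The heart had adipocyte list sums of 6738 to 9748 CPM, above those of WT ND muscle, but its Adipoq, the adiponectin gene of fat cells, was at 4.44 CPM or less, and Lpl, Cd36 and Fabp4, genes of fatty acid uptake and handling, made up most of its sum. In epididymal fat it lay at 2153, 2124 and 1086 CPM in WT ND and at 467, 839 and 2006 CPM in WT HFD. The ob/ob ND libraries had 2752, 3966 and 4991 CPM and the ob/ob HFD libraries 3405, 2336 and 2760 CPM. All 6 ob/ob libraries thus stood above all 6 WT libraries, with means of 3368 ± 980 and 1446 ± 739 CPM (SD, n = 6). Neither single-diet contrast passed: the log2 difference was 1.13 ± 0.46 (SE) on ND, with an edgeR adjusted p of 0.0651, and 1.36 ± 0.47 on HFD, with 0.066. Averaged over both diets, an alternative contrast that 35.9% of genes tested passed, it was 1.24 ± 0.33 with an adjusted p of 0.0128, a 2.37-fold difference. DESeq2 called both single-diet contrasts, with adjusted p of 0.0226 and 0.0144, and edgeR without the filter on low counts did too, with 0.0409 and 0.0474. The diet did not change Lep detectably in either genotype there, at -0.70 ± 0.46 in WT (adjusted p = 0.215) and -0.46 ± 0.46 in ob/ob (adjusted p = 0.923).

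The aorta libraries showed the widest spread between groups. Lep was at 10.9, 10.3 and 9.52 CPM in WT ND, at 152, 160 and 90.7 CPM in WT HFD, at 1144, 1140 and 1845 CPM in ob/ob ND and at 1087, 730 and 1551 CPM in ob/ob HFD. The 3 WT ND libraries were the lowest, the 3 WT HFD libraries came next, and all 6 ob/ob libraries were above both, with no overlap. On ND Lep rose 134-fold in ob/ob (log2 7.07 ± 0.37, edgeR adjusted p = 3.3e-07), and on HFD 8.35-fold (log2 3.06 ± 0.30, adjusted p = 0.000186). HFD raised it 13.1-fold in WT (log2 3.71 ± 0.32, adjusted p = 8.05e-05), while the ob/ob value was -0.29 ± 0.28 (adjusted p = 1). The diet effects differed by -4.01 ± 0.42 (adjusted p = 0.00111). These 4 calls held whichever library of the 12 was left out. The 12 adipocyte markers summed to 24899 to 36554 CPM over all 12 aorta libraries, and on ND 1 of them was higher and 2 lower in ob/ob, while the brown fat markers were lower in sum in ob/ob. What part the kind of fat around the vessel has in the Lep difference was not tested.

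Skeletal muscle gave the same order of group medians but with wide spread inside the groups. Lep was at 12.4, 31.6 and 111 CPM in WT ND, at 994, 1137 and 507 CPM in WT HFD, at 2671, 1985 and 3329 CPM in ob/ob ND and at 509, 3478 and 2035 CPM in ob/ob HFD. On ND it rose 51.5-fold in ob/ob (log2 5.69 ± 0.95, edgeR adjusted p = 0.00326), in 12 of 12 fits with 1 library left out. WT HFD exceeded WT ND in every library, at a log2 difference of 4.09 ± 0.88 with an adjusted p of 0.101. That p became 0.00719 without ob/ob HFD 1, the ob/ob library with the least Lep and the most muscle RNA, and DESeq2 gave 2.33e-05 on all libraries. Of all genes tested, 0 passed this contrast by edgeR on all libraries, 1799 without ob/ob HFD 1 and 838 by DESeq2. The adipocyte markers moved along: their sums were 1087, 4566 and 5391 CPM in WT ND, 13803, 15576 and 10044 CPM in WT HFD, 25889, 21157 and 24503 CPM in ob/ob ND and 6900, 37907 and 25420 CPM in ob/ob HFD. On ND 11 of 12 adipocyte markers and 10 of 10 macrophage markers were higher in ob/ob muscle. How much fat went into each muscle library was not tested.

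**Figure D2:**
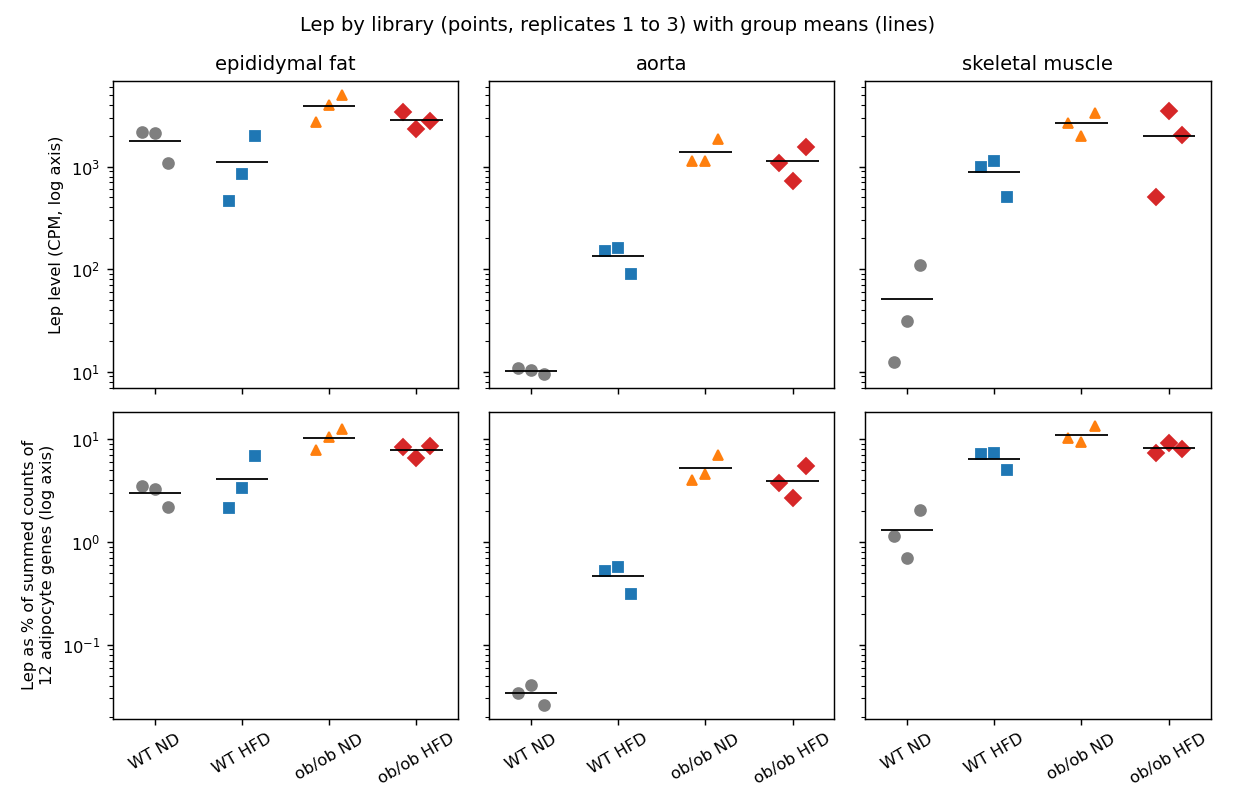
Lep level in CPM (upper row) and as a percent of the summed counts of 12 adipocyte genes (lower row), both on log axes, for epididymal fat, aorta and skeletal muscle. Each point is 1 library and each line a group mean of 3; in aorta the WT ND points lie at 9.52 to 10.9 CPM and the ob/ob points at 730 to 1845 CPM.

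Lep was therefore also set against the adipocyte markers of its own library, some of which are not particular to fat, as the heart values show. As a percent of the summed adipocyte markers, which do not include Lep, the medians in epididymal fat were 3.31 in WT ND, 3.37 in WT HFD, 10.6 in ob/ob ND and 8.43 in ob/ob HFD. In aorta they were 0.034, 0.521, 4.58 and 3.73 in the same order, and in skeletal muscle 1.14, 7.2, 10.3 and 8.01. Averaged over the diets, the ratio was 2.71-fold higher in ob/ob in epididymal fat, 35.7-fold in aorta and 3.44-fold in skeletal muscle. Exact permutation tests within diet gave two-sided p of 0.01, 0.005 and 0.005 (adjusted over the 3 tissues 0.01, 0.0075 and 0.0075), where 0.005 is the smallest value the design allows. With Adipoq alone as denominator the folds were 4.31, 33.2 and 3.14. In muscle the ratio to the summed markers was 9.3-fold higher on ND and 1.27-fold higher on HFD. With Adipoq alone it was 5.4-fold higher on ND and 1.82-fold higher on HFD. In WT epididymal fat Adipoq itself ran from 5848 to 7192 CPM on ND and from 284 to 1115 CPM on HFD, so a ratio to it moves with it.

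Outside these tissues Lep was at the edge of detection. The liver held 123 Lep counts in 12 libraries: 9, 15 and 1 in WT ND, 2, 0 and 0 in WT HFD, 42, 46 and 2 in ob/ob ND, and 0, 6 and 0 in ob/ob HFD. None of its 5 contrasts passed with the filter on low counts; the ND difference was 1.53 ± 0.89 with an edgeR adjusted p of 0.195. The heart held 53 counts in all, 29 of them in WT HFD 1, and the hippocampus 4. The hypothalamus had 0 of 12 libraries with a count; 3 counts, the limit that a count of 0 allows, correspond to 0.205 to 0.24 CPM per library and to 0.0186 CPM over all 12.

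The hormone in the blood did not follow the order of the transcript. Blood leptin, in ng/ml by its column name, was recorded as 0 in all 3 WT ND mice and as 850, 636 and 637 in WT HFD mice. It was 0 in all 6 ob/ob mice. WT HFD differed from WT ND by 708, with an exact permutation p of 0.1, the smallest that 3 against 3 allows. Whether 0 means absent or below a detection limit, and whether the scale is as named, could not be checked. Body fat in its unnamed unit averaged 7.56 ± 1.6 in WT ND, 18.8 ± 1.1 in WT HFD, 41.5 ± 3.2 in ob/ob ND and 47.4 ± 3.38 in ob/ob HFD (SD, n = 3). Epididymal fat weight averaged 1.38, 1.35, 2.64 and 2.22 in the same order, also without a named unit. The ob/ob mice thus had the most Lep transcript in epididymal fat and aorta and 0 recorded in the blood.

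Lepr, the gene of the receptor, was low everywhere and moved most in WT epididymal fat. There it lay at 4.71, 4.48 and 3.74 CPM in WT ND and at 0.536, 0.787 and 3.45 CPM in WT HFD. The ob/ob libraries had 4.31, 3.38 and 3.83 CPM on ND and 4.28, 2.77 and 3.76 CPM on HFD. WT HFD 1 and 2 stood far below all others, and WT HFD 3 lay among the ob/ob values. Lepr fell by 1.42 ± 0.52 on the log2 scale with HFD in WT (edgeR adjusted p = 0.0339). The fall was -2.60 without WT HFD 3 (adjusted p = 4.19e-05) and -0.99 without WT HFD 1, and the call was lost without WT HFD 1, WT HFD 2, WT ND 1 or WT ND 2, with adjusted p up to 0.125. In ob/ob the diet value was -0.09 (adjusted p = 0.986), and the diet effects did not pass the interaction test (1.33 ± 0.71, adjusted p = 0.158). Macrophage markers ran opposite to Lepr over the 9 libraries other than WT ND. Pearson's r of the log2 levels was -0.81 (exact permutation p = 0.00812, adjusted over 6 relations 0.0162). Spearman's rho was -0.62 and did not pass (p = 0.0857, adjusted 0.129). Without the 2 libraries farthest from the median marker sum, r was -0.76. With group means subtracted it was -0.63. This relation was chosen after the data were seen, and the permutation shuffled libraries across groups. Its p therefore does not separate the relation from differences between groups.

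On HFD Lepr rose in ob/ob heart and liver. In heart it was at 3.85, 3.02 and 3.67 CPM in WT HFD and at 5.73, 7.83 and 5.05 CPM in ob/ob HFD, a log2 difference of 0.82 ± 0.28 (edgeR adjusted p = 0.0493). In liver it was at 2.42, 2.62 and 2.42 CPM in WT HFD and at 3.81, 7.51 and 5.4 CPM in ob/ob HFD, a log2 difference of 1.16 ± 0.34 (adjusted p = 0.0285). The HFD groups did not overlap in either tissue, but the calls were close to the threshold: the heart call was lost in 8 of 12 fits with 1 library left out, with p up to 0.194, and the liver call in 5 of 12, with p up to 0.111. The heart call was kept without WT ND 2, WT ND 3, ob/ob ND 1 or ob/ob ND 2, while the liver call was lost without any 1 of the 3 WT HFD libraries, ob/ob HFD 2 or ob/ob HFD 3. In aorta the 3 WT ND libraries, at 1.41, 1.46 and 1.57 CPM, lay above the other 9, at 0.346 to 1.22 CPM, but no contrast passed (diet in WT -1.04 ± 0.36, adjusted p = 0.114). On ND the ranges overlapped in heart and liver, at 2.78 to 5.92 CPM in WT and 3.96 to 7.86 CPM in ob/ob heart, and at 2.85 to 6.05 CPM and 2.85 to 5.95 CPM in liver.

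In the hypothalamus, the main site of leptin action, Lepr did not respond detectably to genotype or diet. It lay at 3.38, 4.73 and 2.95 CPM in WT ND, at 2.99, 3.07 and 3.49 CPM in WT HFD, at 3.43, 4.93 and 3.24 CPM in ob/ob ND and at 2.59, 4.15 and 4.73 CPM in ob/ob HFD. All 4 groups overlapped. The ND difference was 0.07 ± 0.25 (edgeR adjusted p = 0.899) and the HFD difference 0.27 ± 0.26 (adjusted p = 0.643). Over the 7 genes that could be tested there and 5 contrasts, 0 of 35 tests passed, with 1 at an unadjusted p under 0.05 and 0 by DESeq2. Few genes of any kind passed there: 5.3% for genotype on ND, 2.13% on HFD, and 0% for diet in either genotype and the interaction. A library of the whole hypothalamus averages the small nuclei that respond to leptin with the rest.

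Hippocampal Lepr varied more inside groups than between them. It was at 8.09, 1.82 and 2.3 CPM in WT ND, at 7.35, 6.43 and 2.74 CPM in WT HFD, at 2.73, 7.52 and 11.2 CPM in ob/ob ND and at 4.32, 4.52 and 12.1 CPM in ob/ob HFD. The summed level of 8 choroid plexus markers, an epithelium in which short receptor forms are known to be abundant, ran in the same libraries at 405, 44.5 and 27.7 CPM, at 413, 132 and 81.5 CPM, at 20.5, 232 and 442 CPM and at 149, 116 and 433 CPM. Across the 12 libraries r of the log2 levels was 0.91 and rho 0.92, each with a permutation p of 4e-05 (adjusted over 6 relations 0.00024). Without the 2 libraries farthest from the median r was 0.94, and with group means subtracted 0.93. The relation was chosen after the data were seen, and the permutation shuffled libraries across groups, which limits what its p can show. In the hypothalamus the same relation had r of -0.07 (permutation p = 0.829) and rho of 0.06 (p = 0.852). With markers of the arcuate nucleus, where leptin-responsive neurons lie, it had r of 0.11 (p = 0.731) and rho of 0.03 (p = 0.921).

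**Figure D3:**
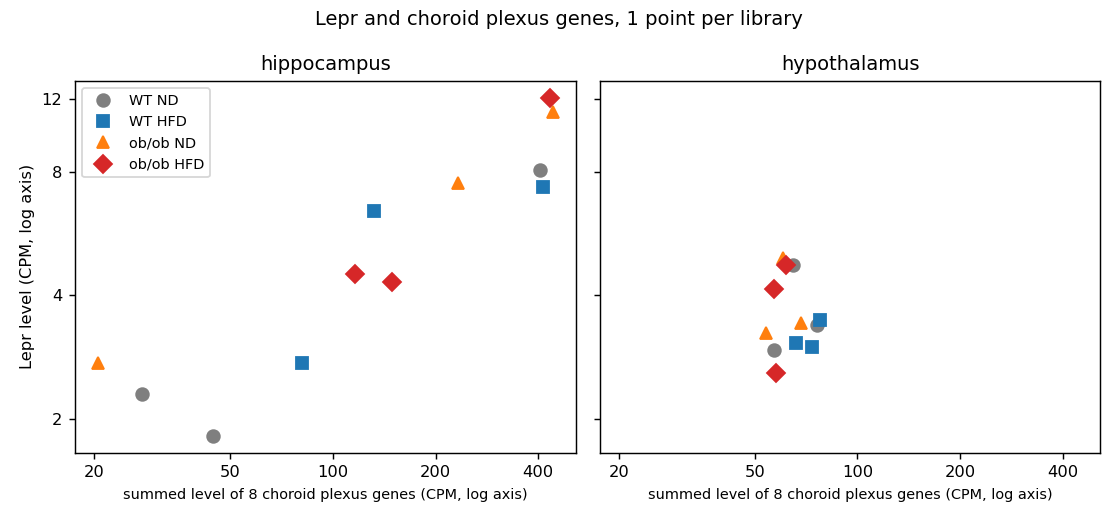
Lepr level against the summed level of 8 choroid plexus genes in hippocampus and hypothalamus, both in CPM on log axes, with 1 point per library and colour and shape giving the group. In the hippocampus the points rise together (r = 0.91, n = 12), and in the hypothalamus they lie in a narrow cluster (r = -0.07, n = 12).

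Jak2, the kinase gene, was steady in most tissues, with the highest of 12 libraries between 1.25 and 1.36 times the lowest in 5 of them: epididymal fat, heart, liver, hypothalamus and hippocampus. In aorta it ran from 19.7 to 37.3 CPM, 1.89-fold, and none of the 5 contrasts passed there (edgeR adjusted p from 0.144 to 1). In skeletal muscle, with a 1.76-fold range, Jak2 was at 54.3, 62.7 and 57.2 CPM in WT ND, at 45.7, 46.9 and 49.1 CPM in WT HFD, at 36, 36.7 and 36 CPM in ob/ob ND and at 38, 36.2 and 35.7 CPM in ob/ob HFD. All 6 ob/ob libraries lay below all 6 WT libraries in a narrow band of 35.7 to 38 CPM. On ND Jak2 fell by 0.68 ± 0.12 on the log2 scale (edgeR adjusted p = 0.00332), in 12 of 12 fits with 1 library left out. On HFD the value was -0.37 ± 0.12 (adjusted p = 0.193). On ND the summed muscle markers averaged 161105 CPM in WT and 38767 CPM in ob/ob, with 0 of 7 called, and adipocyte and macrophage markers were higher in ob/ob. Their part in the Jak2 difference was not tested. In epididymal fat Jak2 rose slightly in ob/ob on ND, from 49.2, 55.2 and 51 CPM to 60.2, 61.9 and 58 CPM (log2 0.21 ± 0.08, adjusted p = 0.0443). That call was lost in 5 of 12 fits with 1 library left out, with p up to 0.129: those without WT ND 1, WT ND 3, ob/ob ND 1, ob/ob ND 2 or ob/ob HFD 3. It was also lost without the filter on low counts (adjusted p = 0.0801). On ND the summed macrophage markers were higher and the summed adipocyte markers lower in ob/ob epididymal fat, and their part in this difference was not tested.

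Sh2b1, the adaptor gene, fell in 2 tissues of ob/ob mice on ND. In epididymal fat it was at 55.2, 45.4 and 58.9 CPM in WT ND and at 37.1, 41.2 and 37.2 CPM in ob/ob ND, a fall of 0.47 ± 0.11 on the log2 scale (edgeR adjusted p = 0.0039), in 12 of 12 fits with 1 library left out. WT HFD lay between, at 45.7, 40.8 and 49.1 CPM. Summed macrophage markers were higher and summed adipocyte markers lower in ob/ob ND than in WT ND fat, and their part in the Sh2b1 fall was not tested. In the hippocampus the WT ND libraries had 78.8, 78.1 and 67.4 CPM and the ob/ob ND libraries 59, 61.3 and 53.7 CPM, a fall of 0.37 ± 0.08 (adjusted p = 0.0348). On HFD the hippocampal values were 74.7, 75.7 and 76.7 CPM in WT and 58.3, 64.3 and 62.7 CPM in ob/ob, at -0.29 with an adjusted p of 0.0868 by edgeR and 0.0374 by DESeq2. All 6 ob/ob hippocampi thus lay below all 6 WT hippocampi. The hippocampal ND call was lost in 6 of 12 fits with 1 library left out, with p up to 0.135, those without WT ND 1, WT ND 2, WT HFD 2, ob/ob ND 1, ob/ob ND 3 or ob/ob HFD 2. It was also lost without the filter on low counts (adjusted p = 0.0683).

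In skeletal muscle Sh2b1 turned on a single library. It was at 49.8 to 60.5 CPM in the 6 WT libraries, at 32.1, 42.4 and 33.6 CPM in ob/ob ND and at 65, 26.5 and 26.9 CPM in ob/ob HFD. The high value of 65 CPM is ob/ob HFD 1, the library rich in muscle markers. The ND difference of -0.62 ± 0.30 did not pass (edgeR adjusted p = 0.108), and without ob/ob HFD 1 it did (-0.62, adjusted p = 0.00296), as did the HFD difference (-1.04, adjusted p = 0.00276). This was not particular to Sh2b1. Without that library the number of all genes passing in muscle went from 6950 to 9012 on ND. On HFD it went from 3 to 5678.

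Stat3, the transcription factor gene, rose in ob/ob skeletal muscle on ND. It was at 49, 53.1 and 51.1 CPM in WT ND, at 80.3, 70.5 and 71.8 CPM in WT HFD, at 103, 87.8 and 111 CPM in ob/ob ND and at 62.5, 114 and 112 CPM in ob/ob HFD. Each group of WT mice was tight, and ob/ob HFD 1 again stood apart from the rest of its group. The ND rise was 0.98 ± 0.22 on the log2 scale, 1.97-fold (edgeR adjusted p = 0.00716), in 12 of 12 fits with 1 library left out. The WT diet value of 0.54 did not pass on all libraries (adjusted p = 0.23) and did without ob/ob HFD 1 (0.54, adjusted p = 0.0249). Of all genes tested, 0 passed that contrast on all libraries and 1799 without ob/ob HFD 1. Adipocyte and macrophage markers of these libraries were higher in ob/ob too, as given above, and their part in the Stat3 rise was not tested.

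On HFD Stat3 also rose in ob/ob aorta and heart. In aorta it was at 61.4, 73.9 and 62 CPM in WT HFD and at 86.6, 102 and 97.9 CPM in ob/ob HFD (log2 0.54 ± 0.16, edgeR adjusted p = 0.0369). In heart it was at 68.5, 74.1 and 67.3 CPM in WT HFD and at 81.7, 88.7 and 89.7 CPM in ob/ob HFD (log2 0.31 ± 0.09, adjusted p = 0.034). Neither pair of groups overlapped. The aorta call was lost in 8 of 12 fits with 1 library left out, with p up to 0.127, and was kept without WT ND 1, WT ND 2, WT ND 3 or ob/ob ND 2. The heart call was lost in 4 of 12, those without WT HFD 1, WT HFD 3, ob/ob HFD 2 or ob/ob HFD 3, with p up to 0.106. In hypothalamus Stat3 stayed between 61.9 and 83.6 CPM over all 12 libraries, with an ND difference of -0.07 ± 0.10 (adjusted p = 0.708).

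Socs3, the inhibitor gene that STAT3 induces, rose in ob/ob heart on HFD, with wide spread inside several groups. In heart it was at 3.52, 3.9 and 4.14 CPM in WT HFD and at 9.92, 9.21 and 4.42 CPM in ob/ob HFD, a rise of 1.03 ± 0.33 on the log2 scale (edgeR adjusted p = 0.042). Even the lowest ob/ob library exceeded the highest WT library there. The call was lost in 6 of 12 fits with 1 library left out, with p up to 0.149: those without any 1 of the 3 WT HFD libraries, ob/ob HFD 1, ob/ob HFD 2 or ob/ob ND 1. On ND the heart values were 4.89, 11.9 and 5.09 CPM in WT and 6.5, 5.78 and 8.7 CPM in ob/ob, with overlap. In hippocampus the ND values were 1.49, 1.33 and 1.98 CPM in WT and 4.29, 2.55 and 3.48 CPM in ob/ob, without overlap but short of the threshold (log2 1.10 ± 0.29, adjusted p = 0.0603). DESeq2 called that difference, with an adjusted p of 0.0285.

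The aortic value of Socs3 depended on 1 mouse. WT ND 2 had 48.3 CPM, against 6.09 and 5.66 CPM in the rest of its group, 3.27 to 5.73 CPM in WT HFD and 6.81 to 10.3 CPM in the 6 ob/ob libraries. The ND difference was -1.14 (edgeR adjusted p = 0.177) and turned to 0.62 (adjusted p = 0.06) without that library. The same library had the highest summed macrophage markers of its group, at 1803 CPM against 420 and 694 CPM. A list drawn up for meninges, which holds Dcn, Col1a1 and Lum, was highest there too, at 1974 CPM against 799 and 826 CPM. In aorta that sum does not name a cell type. Cardiomyocyte markers were also highest in WT ND 2, at 489 CPM against 116 and 182 CPM. Adipocyte markers were lowest, at 25287 CPM against 32206 and 36554 CPM. The part of these differences in the Socs3 value was not tested. WT ND 2 also stood apart in its group for Stat3 (113 CPM against 74.8 and 73.4), Ptpn1 (39.3 against 24.6 and 22.8), Jak2 (28.9 against 21.8 and 23) and Sh2b1 (34.1 against 58.6 and 50.3). For Lep and Lepr it lay between the others. The aortic ND differences of Stat3 (0.14, edgeR adjusted p = 0.512) and Ptpn1 (0.32, adjusted p = 0.2) include that library. In epididymal fat Socs3 ran from 12.6 to 56.3 CPM within WT HFD alone, and in hypothalamus from 1.2 to 3.53 CPM over all libraries, with an ND difference of 0.08 ± 0.29 (adjusted p = 0.907).

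Ptpn1, the gene of PTP1B, gave the largest change among the inhibitors. In epididymal fat it was at 55.2, 61.9 and 57.1 CPM in WT ND, at 402, 279 and 150 CPM in WT HFD, at 202, 129 and 114 CPM in ob/ob ND and at 160, 275 and 183 CPM in ob/ob HFD. The 3 WT ND libraries were close together and below the 9 others, which overlapped among themselves. HFD raised Ptpn1 4.77-fold in WT (log2 2.25 ± 0.34, edgeR adjusted p = 0.00023), and on ND it was 2.56-fold higher in ob/ob (log2 1.35 ± 0.34, adjusted p = 0.00657). The diet effect in ob/ob was smaller than in WT by 1.78 ± 0.47 (interaction -1.78, adjusted p = 0.0114). These 3 calls held whichever library was left out, with the WT diet value between 1.92 and 2.63.

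Macrophage markers followed the same order in epididymal fat. The 10 markers summed to 2115, 2112 and 1979 CPM in WT ND, to 25280, 23705 and 14316 CPM in WT HFD, to 16276, 9947 and 8629 CPM in ob/ob ND and to 12082, 17349 and 12870 CPM in ob/ob HFD. Of the 10 markers, 9 rose and 1 fell both with HFD in WT and in ob/ob on ND. Over the 9 libraries other than WT ND, r of the log2 levels with Ptpn1 was 0.95 (exact permutation p = 9.37e-05, adjusted over 6 relations 0.000281) and rho 0.95 (p = 0.000353, adjusted 0.00106). Without the 2 libraries farthest from the median r was 0.90, and with group means subtracted 0.95. The relation and the choice of libraries were made after the data were seen, and the permutation shuffled libraries across groups. The p therefore does not separate the relation from differences between groups. Adipocyte markers went the other way, from 60718, 64257 and 49716 CPM in WT ND to 21980, 24889 and 29231 CPM in WT HFD. Whether Ptpn1 changed in fat cells, in macrophages or through their proportions was not tested.

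**Figure D4:**
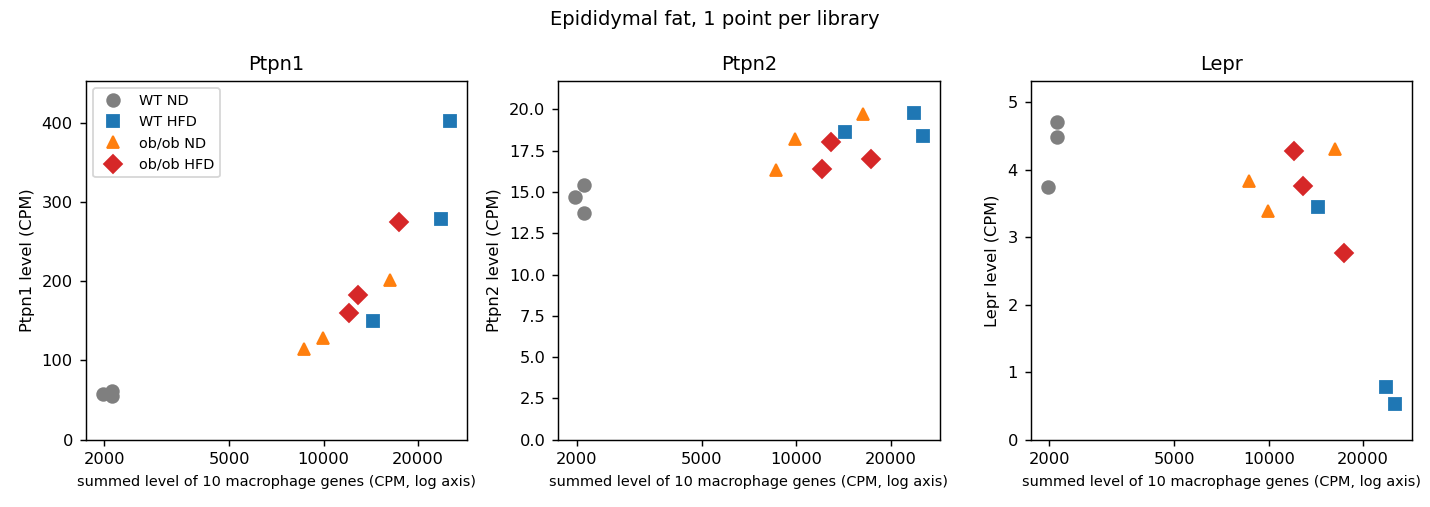
Levels of Ptpn1, Ptpn2 and Lepr in CPM on linear axes from 0, against the summed level of 10 macrophage genes in CPM on a log axis, in the 12 epididymal fat libraries, with 1 point per library and colour and shape giving the group. Over the 9 libraries other than WT ND, r of the log2 levels was 0.95 for Ptpn1, 0.60 for Ptpn2 and -0.81 for Lepr.

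Ptpn1 rose in ob/ob in liver and skeletal muscle as well, by less. In liver it was at 26.1, 29.4 and 26 CPM in WT ND and at 32.9, 36.5 and 36.5 CPM in ob/ob ND, a rise of 0.38 ± 0.09 on the log2 scale (edgeR adjusted p = 0.00629) that held in 12 of 12 fits with 1 library left out. In skeletal muscle it was at 35.5, 24.9 and 27 CPM in WT ND and at 37.2, 44.3 and 40.9 CPM in ob/ob ND (log2 0.49 ± 0.16, adjusted p = 0.0302). The muscle call was lost in 6 of 12 such fits, with p up to 0.0995: those without WT ND 2, WT ND 3, WT HFD 2 or any 1 of the 3 ob/ob ND libraries. It was also lost without the filter on low counts (adjusted p = 0.0617). Summed macrophage markers averaged 357 CPM in WT ND and 1985 CPM in ob/ob ND muscle and adipocyte markers 3681 and 23850 CPM, and their part in the muscle difference was not tested. In hypothalamus Ptpn1 lay at 38.6 to 55.6 CPM, with an ND difference of 0.19 ± 0.11 (adjusted p = 0.324).

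Ptpn2, the gene of TCPTP, moved in the same tissue and direction as Ptpn1 but over a narrow range. In epididymal fat it was at 13.7, 15.4 and 14.7 CPM in WT ND, at 18.4, 19.8 and 18.6 CPM in WT HFD, at 19.7, 18.2 and 16.3 CPM in ob/ob ND and at 16.4, 17 and 18 CPM in ob/ob HFD. Again the WT ND libraries were below all others. HFD raised it by 0.37 ± 0.10 on the log2 scale in WT (edgeR adjusted p = 0.00641), and on ND it was higher in ob/ob by 0.31 ± 0.10 (adjusted p = 0.0223). The interaction was -0.45 ± 0.14 (adjusted p = 0.0226). The WT diet call held in 12 of 12 fits with 1 library left out. The ND call and the interaction were both lost without WT ND 1 or ob/ob ND 1, with p up to 0.0862 and 0.0532, and without the filter on low counts (0.0519 and 0.0543). With the macrophage markers r was 0.60 (exact permutation p = 0.09, adjusted 0.135) and rho 0.63 (p = 0.076, adjusted 0.129), over the same 9 libraries. The part of these cells in the Ptpn2 values was not tested. In heart all 6 ob/ob libraries, at 13.3 to 16.4 CPM, lay above all 6 WT libraries, at 10.8 to 13.1 CPM, but neither diet alone passed (ND 0.28 ± 0.11, adjusted p = 0.101, and HFD 0.19 ± 0.11, adjusted p = 0.248).

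To compare genes and tissues, levels were divided by exon length and scaled over all 84 libraries, as CPM per kilobase (CPM/kb). The order of tissues depends on this scaling. Sh2b1, for example, averaged 14 CPM/kb in liver and 13.5 CPM/kb in hippocampus. By CPM scaled within a tissue it was at most 42.3 CPM in liver and at least 53.7 CPM in hippocampus. Each pair of tissues was compared within mice by an exact permutation test, adjusted over all 168 pairs, and the 12 mice of a tissue include all 4 groups. The test used log2(CPM + 0.5) with the same scaling but without division by exon length. In all, 124 of the 168 pairs differed, and the smallest p that 12 mice allow is 0.000488. Lep led in epididymal fat, at 515 ± 269 CPM/kb (SD, n = 12), ahead of skeletal muscle at 435 ± 397 and aorta at 222 ± 225, with liver next at 0.34 ± 0.526. Epididymal fat and muscle did not differ beyond their spread (exact permutation p = 0.136, adjusted 0.159). In WT ND alone, epididymal fat had 386 ± 135 CPM/kb, muscle 15.5 ± 15.8 and aorta 3.47 ± 0.308 (SD, n = 3).

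Lepr had the lowest per-length level of the set in epididymal fat, aorta and skeletal muscle, and its order across tissues was shallow. Heart came first at 0.975 ± 0.324 CPM/kb, followed by liver at 0.91 ± 0.363, hippocampus at 0.661 ± 0.385, skeletal muscle at 0.55 ± 0.268, hypothalamus at 0.38 ± 0.083, epididymal fat at 0.341 ± 0.138 and aorta at 0.158 ± 0.0608 (SD, n = 12). Of the 6 neighbouring pairs in that order only epididymal fat and aorta differed (exact permutation adjusted p = 0.00406). Over all pairs, 12 of 21 did.

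The intracellular components were present in all 7 tissues. Jak2 ran from 5.77 ± 1.04 CPM/kb in aorta to 9.09 ± 1.8 in skeletal muscle, and 14 of its 21 pairs differed. Sh2b1 ran from 8.22 ± 1.28 in epididymal fat to 14.7 ± 2.29 in aorta, and 11 of 21 pairs differed, epididymal fat standing below its neighbour hypothalamus (11.7 ± 0.745) in 12 of 12 mice. Stat3 ran from 4.32 ± 0.416 in hippocampus and 5.44 ± 0.535 in hypothalamus to 13.6 ± 2.11 in epididymal fat and 14.5 ± 1.19 in liver, and 19 of 21 pairs differed. Averaged over all 4 groups, both brain regions lay below the other 5 tissues for Stat3 and Socs3, but in WT ND alone Stat3 was at 5.38 ± 0.19 CPM/kb in skeletal muscle and 5.65 ± 0.463 in hypothalamus (SD, n = 3).

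Among the inhibitors, Socs3 was at 0.635 ± 0.169 CPM/kb in hypothalamus and 0.691 ± 0.234 in hippocampus, against 3.07 ± 1.29 in heart, the next tissue, in 12 of 12 mice, and 7.11 ± 3.33 in epididymal fat. Of its 21 pairs 14 differed. Ptpn1 was at 22.9 ± 14.7 CPM/kb in epididymal fat over all groups but at 7.56 ± 0.481 there in WT ND, below the 9.96 ± 0.918 of WT ND hippocampus, so its first place rests on the other 3 groups. The other tissues had 4.92 ± 0.373 (heart) to 8.93 ± 0.873 (hippocampus), and 17 of 21 pairs differed. Ptpn2 ran from 3.19 ± 0.245 in hypothalamus to 7.64 ± 1.07 in aorta, and 19 of 21 pairs differed.

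**Figure D5:**
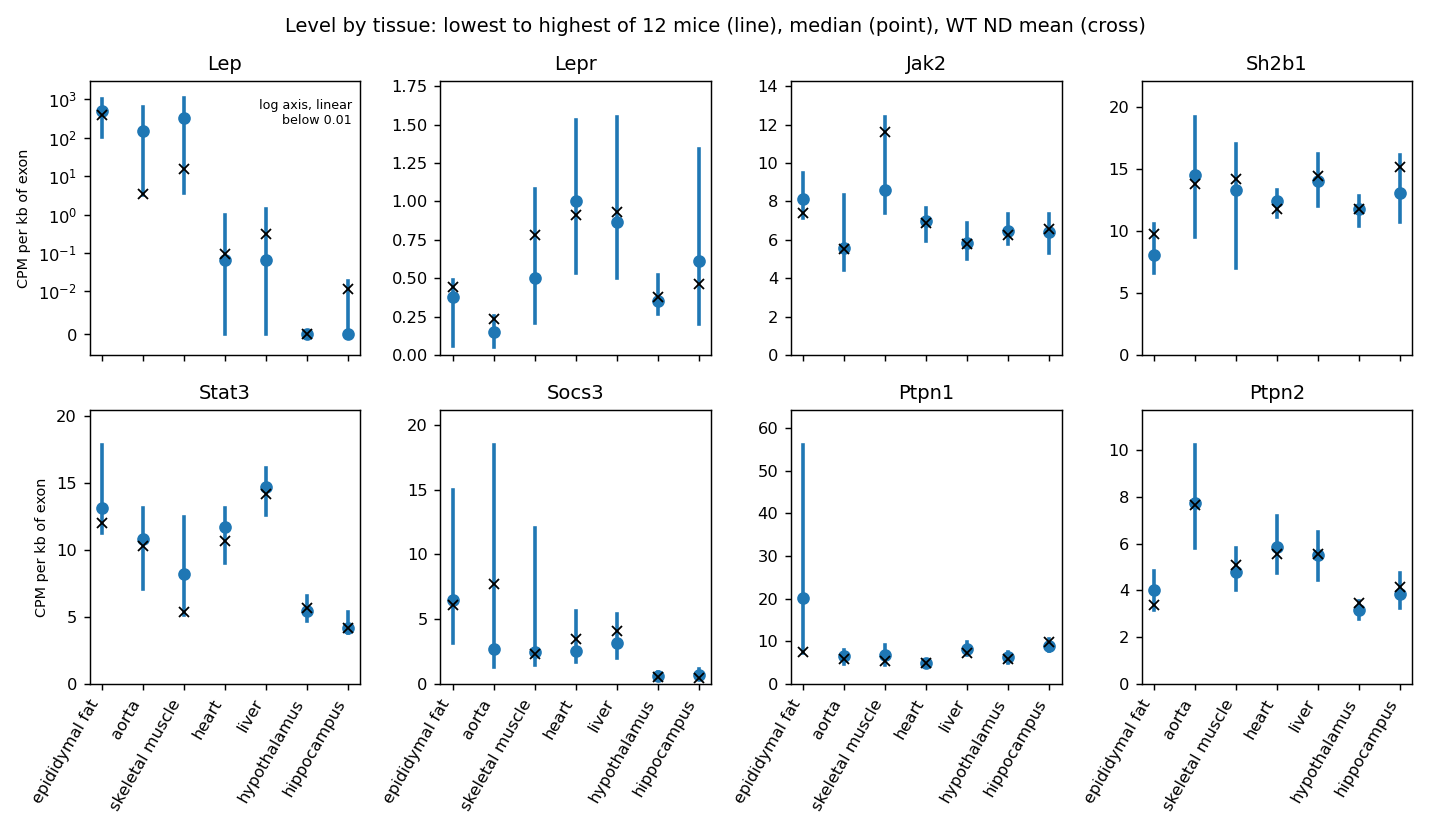
Level of each of the 8 genes in CPM per kilobase of exon in 7 tissues: lines run from the lowest to the highest of 12 mice, points are medians and crosses are WT ND means of 3 mice. The axis is linear from 0 except for Lep, which has a log axis that turns linear near 0; the Ptpn1 cross in epididymal fat (7.56) lies far below the median (20.1).

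Beyond the 8 genes, 76 other genes of the pathway were read in 6 lists: receptor relatives and trafficking, Janus kinase and STAT relatives, feedback inhibitors, the PI3K branch, the ERK and AMPK branches, and STAT3-inducible genes. On ND 17 rose and 18 fell in ob/ob among 74 tested in epididymal fat, where 48.2% of all genes passed, 17 and 10 of 73 in aorta (31.7%) and 28 and 8 of 72 in skeletal muscle (45%). Liver had 14 and 17 of 72 (36.4%) and heart 4 and 9 of 71 (12.7%). In hypothalamus 0 rose and 2 fell of 74 (5.3%), and in hippocampus 1 rose and 1 fell of 73 (3.48%). With HFD in WT, 27 rose and 28 fell of 74 in epididymal fat, where 58.9% of all genes passed. With HFD in WT epididymal fat the share lies above the background, and on ND the shares lie nearer to it. No share was tested against the background, and the counts are not a result about the pathway. The median log2 difference over the lists was 0.04 in epididymal fat and 0.27 in skeletal muscle on ND, against -0.01 and 0.00 over all genes tested. By list, muscle on ND had 7 of 13 PI3K branch genes higher and 1 lower, 5 of 10 Janus kinase and STAT relatives higher and 1 lower, and 5 of 11 feedback inhibitors higher and 0 lower. It had 3 of 11 receptor relatives higher and 0 lower, 4 of 14 genes of the ERK and AMPK branches higher and 2 lower, and 4 of 13 STAT3-inducible genes higher and 4 lower, the last with a median of -0.33.

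The genes with the smallest p of each tissue are given as single genes and do not stand for their lists. In epididymal fat Ptprj, a receptor phosphatase, rose 3.75-fold and Grb2, an adaptor of the ERK branch, 2.12-fold in ob/ob on ND, and Ptpn6, a phosphatase abundant in blood cells, rose 6.16-fold with HFD in WT (edgeR adjusted p = 9.89e-07). In aorta Serpina3n, an acute-phase protease inhibitor, rose 6.78-fold from 20.6 ± 4.51 to 140 ± 22.7 CPM (SD, n = 3 each) on ND, and Ptpn11, the phosphatase SHP2 of the ERK branch, 2-fold. Ptprk, another receptor phosphatase, rose 2.27-fold there with HFD in WT. In skeletal muscle Pik3r1, a regulatory subunit of PI3K, rose 4.49-fold and Serpina3n 39.7-fold in ob/ob on ND, and Foxo1 stood at 31.5 ± 7.63 and 61.6 ± 6.47 CPM in WT ND and WT HFD without passing (adjusted p = 0.101).

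In heart Pik3r1 rose 1.8-fold and Ptpn11 1.58-fold in ob/ob on ND, and Irs1, an insulin receptor substrate, fell by 1.12 on the log2 scale with HFD in WT (edgeR adjusted p = 0.0148). Liver showed falls: Zfp36, which destabilises mRNAs, went from 199 ± 30 to 45.4 ± 0.618 CPM and Lifr, the receptor of leukaemia inhibitory factor, from 175 ± 7.26 to 50.3 ± 5.94 CPM in ob/ob on ND (adjusted p = 3.16e-07 and 2.95e-07). Lifr also fell by 1.13 on the log2 scale with HFD in WT. In hypothalamus Egr1, an immediate early gene, fell from 74.1 ± 5.42 to 40.9 ± 5.42 CPM in ob/ob on ND (SD, n = 3 each; adjusted p = 0.0093). Serpina3n stood at 45.8 and 65 CPM in WT ND and WT HFD there without passing (adjusted p = 0.91). In hippocampus Akt2 fell by 0.48 and Pias3, an inhibitor of STAT3, rose by 0.38 on the log2 scale (adjusted p = 0.0173 and 0.0475), while Osmr, a cytokine receptor, stood at 4.51 and 6.38 CPM in WT ND and WT HFD (adjusted p = 0.999).

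The genes most like each member over the 84 libraries were found by Pearson's r of log2 levels among 19009 genes, a description in which tissue differences weigh most. Lep was most like Gm5627 (r = 0.98), Serpina3c, Mc2r and 1700047G03Rik (0.97 each) and Cdsn (0.96). With tissue means subtracted it was 1700047G03Rik (0.93), Gm5627 (0.90) and Npr3 (0.89). Lepr had no close partner, with Got2 at 0.78, Got2-ps1 and Bdh1 at 0.75 and Slc38a3 and Hsbp1l1 at 0.72. Got2-ps1 is a pseudogene of Got2, and reads may be split between them. With tissue means subtracted, Lepr was nearest to Aqp1 (0.65), a water channel that is also on the choroid plexus list, then Slc2a12 and Mycbp (0.58 each).

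For Jak2 the nearest were Cbfb (0.82), Plec (0.81), Pde7a and Gm9821 (0.80 each) and Slc16a9 (0.74), and with tissue means subtracted Mpp5 (0.69), Ice1 (0.67) and Sypl (0.65). For Sh2b1 they were Aars2 (0.88), Dkc1 (0.86), Dis3l (0.82), Dlg1 and Mrps5 (0.81 each), and then Rhot2 and Cog6 (0.82 each) and 4833439L19Rik (0.81). For Stat3 they were Il4ra (0.95), Htatip2 (0.94), Slc39a1 and Ninj1 (0.93 each) and Shc1 (0.92), and with tissue means subtracted Pafah1b2 (0.82) and Sumf1 (0.80) were among the nearest.

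Socs3 was most like Wfdc17 (0.91), Fcgr2b, Birc3 and Gmfg (0.90 each) and Hpse (0.89), but with tissue means subtracted no gene exceeded Slc6a14 (0.61), followed by Il13ra1 and Il17ra (0.60 each). Ptpn1 was most like Gla (0.92), Clcn7 (0.91), Med15 and Daglb (0.90 each) and Ctss (0.89), of which Gla, Clcn7 and Ctss encode lysosomal proteins, and with tissue means subtracted Rnh1 (0.90), Serpinb9b (0.88) and B4galt5 (0.87). Ptpn2 was most like Chkb (0.92), Timm44, Dlst and Acadvl (0.91 each) and Rbfa (0.90), and then Lrp4 (0.57), Mrpl19 (0.56) and Rpf2 (0.55).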

How the data were processed

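A single table of gene counts covered 84 mouse libraries of 7 tissues from 12 mice. Per the file headers, the authors made the deposited counts with featureCounts 1.5.1, with no strand option set, and per the submitters' processing notes with Trimmomatic 0.36, HISAT2 2.0.5 and featureCounts 1.5.0-p2 on GRCm38. The values of the blood work are other measurements per mouse, as deposited by the authors, without stated methods. Of the titles, 6 spell HFD as HDF and were read as HFD. Replicates are separate mice.

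The 8 genes and all lists were chosen with earlier results of these data known. Counts were analysed in R 4.3.3 with edgeR 4.0.16 (filterByExpr with a smallest count of 10 and total of 15, TMM, glmQLFit, glmQLFTest) for each tissue with 12 libraries and 4 groups. Contrasts were ob/ob against WT on each diet, HFD against ND in each genotype, and their interaction. Alternatives were DESeq2 1.42.0, its size factors, no filter, a replicate block, the mean of both diets and leaving out each library; a fit of muscle without ob/ob HFD 1 and 2 and the correlations with marker sums were added after seeing the data. Library totals of 10499528 to 17040790 counts set the precision; a count of 0 allows up to 3 counts, covering counting error only. Exact and 100000-resample permutation tests used scipy 1.17.1 and numpy 2.4.6. The fit was tested on simulated counts.

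Named were the 8 genes in every tissue, the 2 other pathway genes with the smallest p on ND and the 1 with the smallest p for diet in WT per tissue, and, by r of log2(CPM + 0.5) over genes with 1 CPM in at least 3 libraries, the 5 genes most like each member and the 3 after tissue means were subtracted. Adipoq, Ucp1 and the library-specific values were singled out after their values were seen. Of the genes this rule selects, 2 are not reported here.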

Additional observations from a re-analysis of the deposited data

Results flagged for a closer look

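For 3 combinations the diet effect differed between the genotypes by edgeR's interaction test, with Benjamini-Hochberg adjustment over all genes tested in the tissue. In aorta the effect of HFD on Lep was lower in ob/ob than in WT by 4.01 on the log2 scale (interaction -4.01), with all 3 WT HFD libraries above WT ND. In epididymal fat the effect on Ptpn1 differed by -1.78 and that on Ptpn2 by -0.45, where the macrophage markers also had 9 of 10 genes with a lower diet effect in ob/ob.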

How the results depend on the processing

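The count of 11 combinations of gene and tissue on ND was 13 by DESeq2 and 7 to 12 with 1 mouse left out. On HFD the count of 6 was 9 by DESeq2 and 1 to 8 with 1 mouse left out. By DESeq2 the number of all genes passing on HFD moved too. It went from 2752 to 3367 in epididymal fat, from 2389 to 2791 in aorta and from 3 to 568 in skeletal muscle. It also rose in both brain regions, and it fell in heart (2349 to 2014) and liver (2445 to 2407). The genotype contrast averaged over both diets, which is a different comparison, gave 15 of 53. Of all genes tested, 13.9% (hippocampus) to 48.6% (skeletal muscle) passed that contrast, depending on the tissue. For diet in WT the count of 4 became 9 without the filter on low counts, and 3 to 7 with 1 mouse left out. Without the filter the number of all genes passing it went from 621 to 1702 in aorta and from 0 to 357 in skeletal muscle. It fell from 9227 to 8971 in epididymal fat. For diet in ob/ob the count of 0 became 2 without the filter and 1 with the replicate block, and stayed at 0 to 0 with 1 mouse left out. Without the filter the number of all genes passing it went from 121 to 976 in liver and from 3 to 360 in heart. It stayed at 0 in epididymal fat and skeletal muscle. The interaction count of 3 became 6 without the filter and 2 to 4 with 1 mouse left out. Over all genes the interaction without the filter went from 63 to 760 in aorta and from 817 to 1496 in liver. It fell from 6285 to 5600 in epididymal fat. With the replicate block the other counts were 10 on ND, 6 on HFD, 5 for diet in WT and 3 for the interaction. Replicate numbers name different mice in each group. Correlations of same-numbered libraries ran from -0.752 to 0.55, but differently numbered libraries were not compared, so a batch shared by number cannot be judged. With the block, all genes passing in hippocampus fell from 569 to 81 on ND and from 255 to 12 on HFD. In aorta they rose from 4685 to 4761 on ND. Pairs of tissues that differed numbered 124, and 124 to 128 with 1 mouse left out. The log2 ratio of Lep to adipocyte markers ran from 1.24 to 1.66 in epididymal fat, 5.03 to 5.29 in aorta and 1.59 to 1.98 in muscle. The blood leptin difference ran from 636 to 744 with 1 mouse left out, and in ranks it was 6. The Socs3 difference in aorta on ND ran from -1.58 to 0.62, the positive value being without WT ND 2. The causes of these changes were not tested. With 3 mice a group, no permutation test of 2 groups can go below 0.1, and low counts limit Lepr and Socs3.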
